A study of Homo sapiens with 4 samples.

Results

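The miRNAs of the miR-151 name were examined in small RNA libraries of human hepatoma cells. They were found by name alone, as hsa-miR-151 with an optional letter and an optional arm suffix and without a star. Of the 1733 miRNAs counted in each library, 3 met this rule, namely hsa-miR-151-3p, hsa-miR-151-5p and hsa-miR-151b. The series compared the established hepatoma lines Hep3B and Huh7 (HCC cells) with the hepatic cancer stem cells (HCSCs) that the study obtained from each line by culture, Hep3B-C and Huh7-C. The HCSCs are an enriched, stem-like form of their parent line, so that each pair shares a genetic origin, and no drug, dose or allele separates the groups in the labels. Each of the 4 conditions was measured in 1 library of total RNA, with no replicates, so no difference below has a replicate check. The members were selected on their counts in these 4 libraries, seen in an earlier look at the data. Their levels are therefore given as a description, with intervals for counting error only, and no test was run.

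A miRNA is cut from a hairpin precursor, whose arms give the 5p and the 3p mature strand. Usually 1 arm is retained by Argonaute as the guide, and the other is degraded, so the counts of the arms reflect both how much hairpin is made and how much of each strand is kept. The miR-151 hairpin lies within PTK2, the gene of focal adhesion kinase, a kinase that relays signals from integrins and promotes cell spreading and migration. In liver cancer, miR-151-5p has been described as acting with focal adhesion kinase in cell migration. Together with miR-28 and miR-708, miR-151 forms the mir-28 family, and miR-28, miR-95 and miR-151 derive from LINE-2 repeats. The mature miR-151b is contained in the sequence of miR-151-5p, so a trimmed read can be assigned to either name.

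In GENCODE release 29 (GRCh38), MIR151A lies on the minus strand of chromosome 8 from 140732564 to 140732653, inside PTK2, which is read from the same strand. Of 57 annotated PTK2 transcripts, 16 span the hairpin, and it is intronic in all 16. MIR151B lies on chromosome 14 from 100109419 to 100109514 within the bounds of EVL, an actin regulator gene read from the opposite strand. It is intronic in the 8 EVL transcripts that span it. MIR28 lies on chromosome 3 from 188688781 to 188688866, in an intron of LPP.

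Total miRNA counts ranged from 1739278 in Hep3B to 5741567 in Huh7. They made up 10.4% of all reads in Hep3B and 35.2% in Hep3B-C, against 54.1% in Huh7 and 37.8% in Huh7-C. Levels are given as TPM, the counts per 1000000 total reads of a library. A single count equalled 0.0596 TPM in Hep3B and 0.0941 TPM in Huh7. A miRNA entered the comparison of a pair if 1 library of the pair or both held 10 counts or more of it, which left 475 miRNAs for Hep3B and 431 for Huh7. Their median log2 fold change (HCSCs over HCC cells, 0.5 counts added) was 1.42 and -0.66. With total miRNA counts as library size, the medians moved by -1.76 and 0.52, to -0.34 and -0.15. Each fold change of a miR-151 miRNA is therefore also given relative to the median of its pair. That difference does not depend on the library size. The 4 hepatocyte markers (hsa-miR-122, hsa-miR-122*, hsa-miR-192 and hsa-miR-194) summed to 10997 TPM (Hep3B), 35490 (Hep3B-C), 115662 (Huh7) and 59629 (Huh7-C), with hsa-miR-122* at 0 counts in Hep3B. Within the pairs hsa-miR-122, the major hepatocyte miRNA, went from 397 to 149892 counts in Hep3B-C (log2 fold change 8.68, the highest of the 475) and from 489443 to 144814 in Huh7-C (-1.77). The 15 markers of blood, endothelial, mesenchymal, neural and muscle cells made up 0.0771% to 0.327% of miRNA counts, and between 4 and 7 of them were at 0 counts in a library. Most of their counts in the Huh7 libraries were of hsa-miR-9, a neural miRNA, with 9765 of 12872 in Huh7 and 11349 of 13215 in Huh7-C. The red cell marker hsa-miR-451 had 773 counts in Huh7 and 2 in Huh7-C (-8.29, the lowest of the 431), and the mesenchymal marker hsa-miR-143 had 427 in Hep3B and 1706 in Hep3B-C (2.12). Of the other red cell markers, hsa-miR-144 had 0 counts in every library, and hsa-miR-486-5p went from 4 (Huh7) to 6 (Huh7-C). Hsa-miR-145, listed with hsa-miR-143, went from 0 counts (Hep3B) to 5 (Hep3B-C). The other neural marker, hsa-miR-124, had 0 counts throughout. The endothelial hsa-miR-126 held 807 of 1480 marker counts (Hep3B) and 1487 of 4187 (Hep3B-C). The part of these markers in the results was not tested.

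Hsa-miR-151-3p was an abundant miRNA in all 4 libraries and was higher in the HCSCs of both lines. Hep3B held 38157 counts (2274 TPM), Hep3B-C 138404 (8964 TPM), Huh7 24070 (2266 TPM) and Huh7-C 40965 (3823 TPM). By counts it was number 12, 10, 20 and 13 among all miRNAs of these libraries, in the same order. Its TPM was nearly the same in the parent lines, whose 95% Poisson intervals overlapped (2251 to 2297 in Hep3B and 2237 to 2295 in Huh7), and both HCSC libraries stood above them. In RNA from a whole culture, more cells with the miRNA and more of it per cell cannot be told apart. In the Hep3B pair the log2 fold change was 1.98 (95% interval 1.96 to 2.00, exact binomial), and in the Huh7 pair 0.75 (0.73 to 0.78). In the Hep3B pair this passed the 2-fold limit of the study, but so did 66.5% of all miRNAs in the same direction, and it no longer passed with total miRNA counts (0.22), TMM (0.57) or DESeq2 size factors (0.80). Relative to the median miRNA, the log2 difference was 0.56 in the Hep3B pair, where 169 of 475 miRNAs had a higher fold change. It was 1.42 in the Huh7 pair, where 45 of 431 were higher. The sign was positive in both pairs under each of the 4 library sizes tried. In the Huh7 pair the 3p arm passed the limit with total miRNA counts, TMM and DESeq2 size factors, under which 15.3%, 11.6% and 16.0% of all miRNAs did so.

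Hsa-miR-151-5p, the arm described in cell migration, did not follow the 3p arm. Hep3B held 2567 counts (153 TPM), Hep3B-C 2647 (171 TPM), Huh7 2491 (235 TPM) and Huh7-C 1018 (95.01 TPM). In TPM, Huh7 was therefore the highest library and Huh7-C the lowest, and no neighbours in this order had overlapping Poisson intervals. On the log2 scale the fold change in the Hep3B pair was 0.16 (interval 0.09 to 0.24) and in the Huh7 pair -1.30 (-1.41 to -1.20). The Huh7 value passed the 2-fold limit, as did 37.4% of all miRNAs in that direction, but it was -0.79, -0.99 and -0.73 with total miRNA counts, TMM and DESeq2 size factors and did not pass under these. Relative to the median of its pair, the 5p arm was lower in both HCSCs, with log2 differences of -1.26 (407 of 475 miRNAs had a higher fold change) and -0.64 (307 of 431). The sign of the Hep3B value rested on the library size, since it was positive with total reads and -1.60, -1.25 and -1.01 with the other library sizes, in the same order. The last 3 passed the limit, as did 25.1%, 17.7% and 14.5% of all miRNAs downward.

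**Figure D1:**
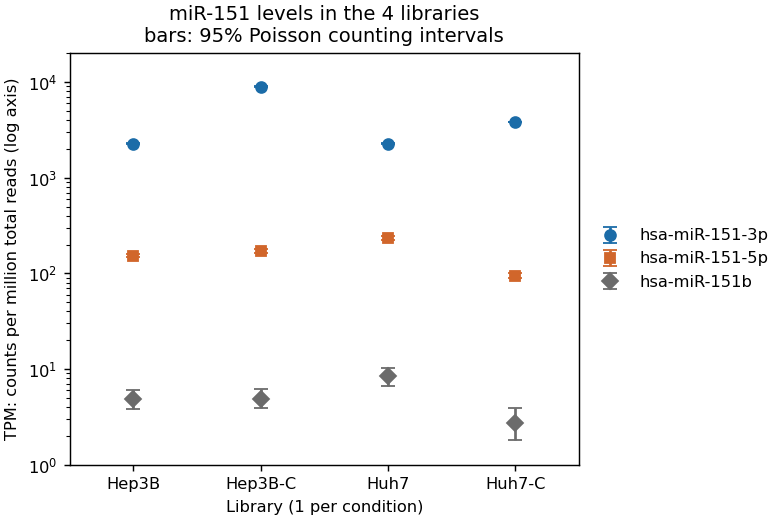
TPM (counts per 1000000 total reads, log axis) of hsa-miR-151-3p, hsa-miR-151-5p and hsa-miR-151b in the 4 libraries, 1 per condition, with 95% Poisson intervals. The 3p arm is highest in Hep3B-C (8964 TPM) and nearly equal in the parent lines, while the 5p arm and miR-151b are highest in Huh7 and lowest in Huh7-C.

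Hsa-miR-151b was scarce, and its level followed that of hsa-miR-151-5p. Hep3B held 81 counts (4.83 TPM), Hep3B-C 76 (4.92 TPM), Huh7 89 (8.38 TPM) and Huh7-C 29 (2.71 TPM). The intervals of Hep3B and Hep3B-C overlapped almost wholly (3.83 to 5.999 and 3.88 to 6.16 TPM), and Huh7 was above and Huh7-C below both in value. The interval of Huh7-C (1.81 to 3.89 TPM) reached into theirs by a narrow margin. Between Hep3B-C and Hep3B its log2 fold change was 0.03 (interval -0.44 to 0.50), and between Huh7-C and Huh7 it was -1.61 (-2.29 to -1.01). The former was -1.73, -1.38 and -1.15 with total miRNA counts, TMM and DESeq2 size factors. With total reads the latter passed the 2-fold limit, as did 37.4% of all miRNAs downward. Relative to the median of its pair, the log2 difference of hsa-miR-151b was -1.39 (417 of 475 miRNAs had a higher fold change) and -0.95 (336 of 431). Set against the 5p arm, Hep3B held 3.16 counts of miR-151b per 100 counts of miR-151-5p, Hep3B-C 2.87, Huh7 3.57 and Huh7-C 2.85. As a share of the counts of both names this was 3.06% (95% Clopper-Pearson interval 2.44 to 3.79), 2.79% (2.21 to 3.48), 3.45% (2.78 to 4.23) and 2.77% (1.86 to 3.95), and all 4 intervals overlapped. Given the nested sequences, how much of these counts came from MIR151B cannot be told apart from reads of the 5p arm.

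**Figure D2:**
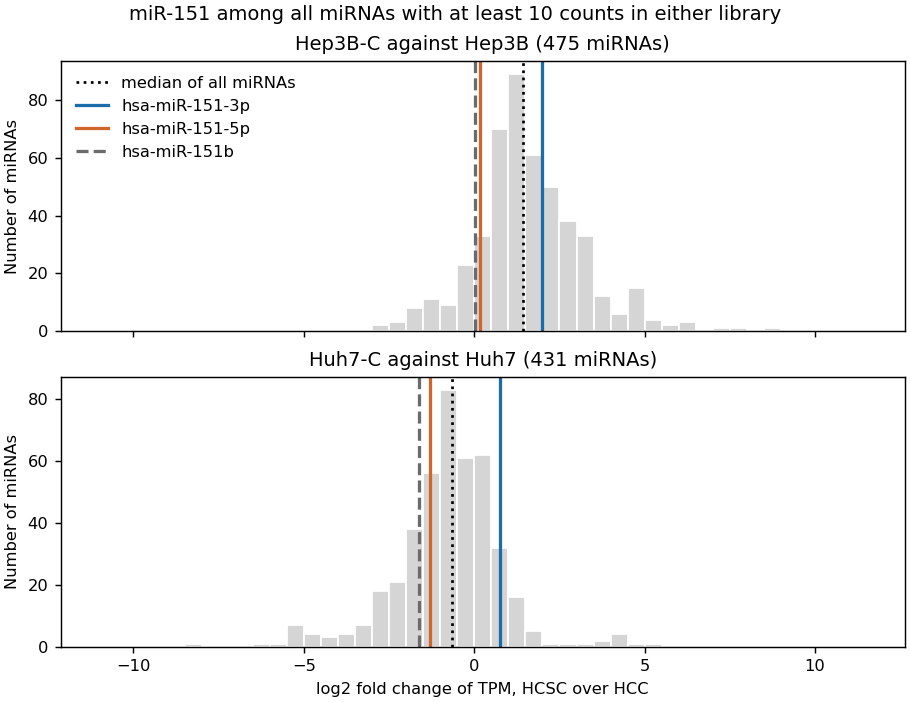
Histograms of the log2 fold change of TPM, HCSCs over HCC cells, for 475 miRNAs in the Hep3B pair (top) and 431 in the Huh7 pair (bottom). Coloured lines mark the 3 miR-151 miRNAs and the dotted line the median of all miRNAs (1.42 and -0.66); in both pairs hsa-miR-151-3p lies above the median, and hsa-miR-151-5p and hsa-miR-151b lie below it.

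The balance of the arms, which does not depend on the library size, differed between HCSCs and HCC cells in the same direction in both lines. The 5p arm made up 6.30% of the counts of both arms in Hep3B (95% Clopper-Pearson interval 6.07 to 6.54, of 40724 counts) and 1.88% in Hep3B-C (1.81 to 1.95, of 141051). It made up 9.38% in Huh7 (9.03 to 9.74, of 26561) and 2.42% in Huh7-C (2.28 to 2.58, of 41983). Both parent lines were thus above both HCSCs, and no intervals overlapped. In numbers of 3p counts per 5p count, Hep3B stood at 14.9, Hep3B-C at 52.3, Huh7 at 9.66 and Huh7-C at 40.2. The ratio was 3.52-fold higher in Hep3B-C than in Hep3B (log2 difference 1.81, Woolf interval 1.73 to 1.89) and 4.16-fold higher in Huh7-C than in Huh7 (2.06, 1.95 to 2.17). Which arm moved more did depend on the library size. For Hep3B-C against Hep3B it was the 3p arm with total reads (log2 fold changes of 1.98 for 3p and 0.16 for 5p). With total miRNA counts it was the 5p arm (0.22 and -1.60). In the Huh7 pair it was the 5p arm with total reads (0.75 for 3p and -1.30 for 5p). It was the 3p arm with total miRNA counts (1.27 and -0.79), TMM (1.07 and -0.99) and DESeq2 size factors (1.33 and -0.73). In that pair the 3p arm was higher and the 5p arm lower under all 4 library sizes. Adding the counts of miR-151b to the 5p arm left the share within its interval in each library.

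**Figure D3:**
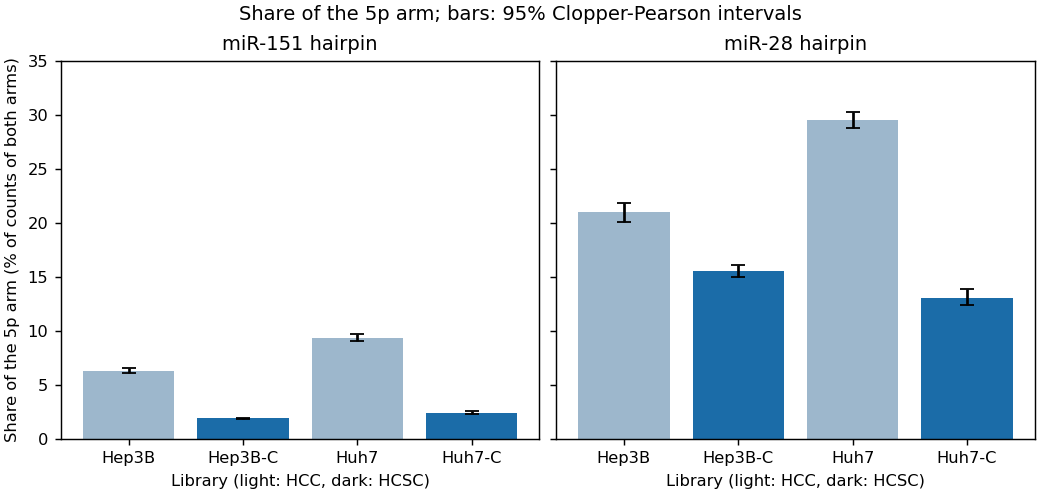
Share of the 5p arm in the counts of both arms (%) of the miR-151 hairpin (left) and the miR-28 hairpin (right) in each library, with 95% Clopper-Pearson intervals. For miR-151 the share was 6.30% and 9.38% in the parent lines and 1.88% and 2.42% in the HCSCs, and for miR-28 the HCSC libraries were also the lower of each pair.

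The arm ratio of miR-151 was set beside those of other hairpins with at least 10 counts for each arm in both libraries of a pair. The change was taken as the log2 ratio of the more abundant to the less abundant arm, HCSCs minus HCC cells. In the Hep3B pair 60 hairpins could be compared, with a median change of 0.17, and 18.3% shifted at least 2-fold toward the major arm and 8.33% toward the minor arm. The miR-151 hairpin ranked number 5 in its direction. In the Huh7 pair 66 hairpins had a median of 0.36, with 16.7% shifted toward the major and 7.58% toward the minor arm, and miR-151 ranked number 3. Under a minimum of 100 counts per arm, chosen after the data were seen, miR-151 was number 2 of 23 and number 1 of 22. Of 45 hairpins compared in both pairs, 4 shifted at least 2-fold toward the major arm in both, those of miR-151, miR-15b, miR-22 and miR-221, and 1 toward the minor arm, that of miR-30e. The hairpins other than miR-151 are named here after their values were seen. A change toward the 3p arm was seen in 5 of the 20 hairpins with arms named 5p and 3p in the Hep3B pair and in 10 of the 23 in the Huh7 pair, miR-151 included. The median change of the 3p to 5p ratio was -0.34 in the former and -0.01 in the latter. In each pair 1 of these hairpins had a larger change toward the 3p arm than miR-151.

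**Figure D4:**
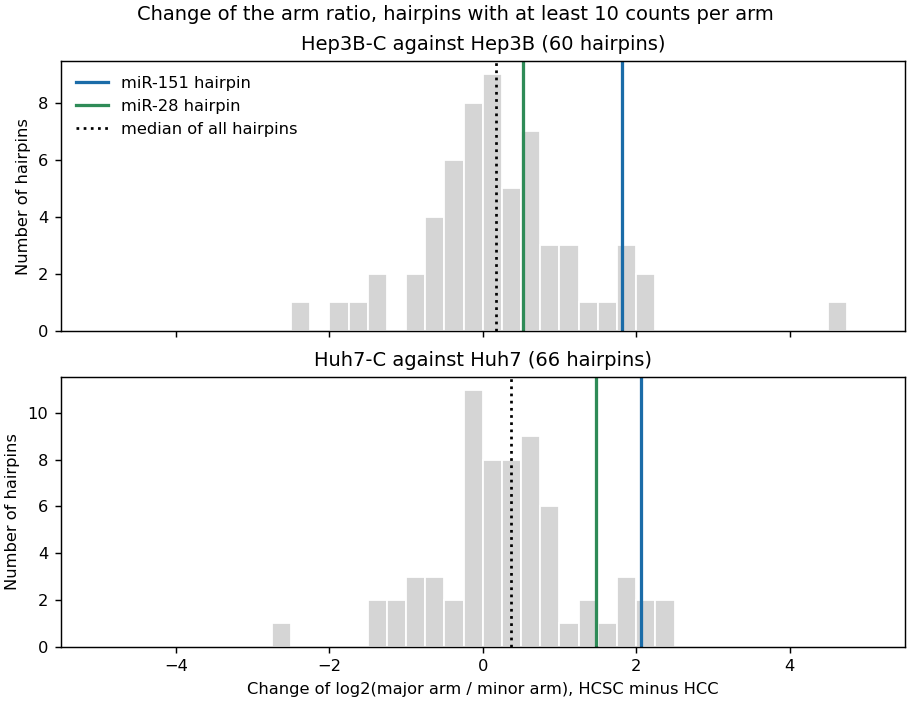
Histograms of the change of the log2 ratio of major to minor arm, HCSCs minus HCC cells, over 60 hairpins (Hep3B pair, top) and 66 hairpins (Huh7 pair, bottom). The line of the miR-151 hairpin lies in the right tail at 1.81 and 2.06, that of miR-28 at 0.53 and 1.48, and the dotted median at 0.17 and 0.36.

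Mature 3p sequences of the relatives miR-28 and miR-708 are given from RefSeq (GRCh38.p14); miR-28 is the expressed relative whose arms are set beside those of miR-151. Capitals mark the seed, bases 2 to 8, which pairs with targets.
hsa-miR-28-3p: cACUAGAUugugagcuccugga
hsa-miR-708-3p: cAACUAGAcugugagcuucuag
The first is at chr3:188688834-188688855 on the plus strand and the second at chr11:79402032-79402053 on the minus strand. Their seeds are not identical, but both hold ACUAGA, shifted in position between the strands. The longest run that the strands share is 8 bases, from base 9 of hsa-miR-28-3p and base 10 of hsa-miR-708-3p, with the same shift. No other mature miRNA of the RefSeq table has either seed. That table holds no sequence of hsa-miR-151-3p, hsa-miR-151-5p, hsa-miR-151b or hsa-miR-28-5p, so these could not be compared.

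Among its relatives in the mir-28 family, miR-28 had the same order of arms, with fewer counts of the 3p arm. For hsa-miR-28-3p, Hep3B held 6322 counts, Hep3B-C 12925, Huh7 10264 and Huh7-C 6909. Hsa-miR-28-5p had 1678, 2378, 4307 and 1040 counts in the same order. The 5p share was 21.0% (Hep3B), 15.5% (Hep3B-C), 29.6% (Huh7) and 13.1% (Huh7-C), so it was lower in the HCSCs of both lines, as for miR-151. The 3p to 5p ratio of miR-28 was 1.44-fold higher in Hep3B-C (log2 difference 0.53, Woolf interval 0.43 to 0.63) and 2.79-fold higher in Huh7-C (1.48, 1.37 to 1.59). These intervals lie below those of miR-151 in the same pair. The log2 fold changes of hsa-miR-28-3p were 1.15 and -0.58 in the Hep3B and Huh7 pairs, and those of hsa-miR-28-5p were 0.62 and -2.06. Both Hep3B values turned negative with total miRNA counts, TMM and DESeq2 size factors, at -0.61, -0.26 and -0.03 for hsa-miR-28-3p and -1.14, -0.79 and -0.56 for hsa-miR-28-5p. In the Huh7 pair hsa-miR-28-3p was -0.07, -0.27 and -0.01 under these, and it lay 0.08 above the median of the pair, against 1.42 for hsa-miR-151-3p. Hsa-miR-708 had 1 count in all, in Huh7-C, and hsa-miR-708* had none. Both were below 3 counts, a floor chosen here, which equalled 0.179 to 0.282 TPM. The other miRNA from a LINE-2 repeat, hsa-miR-95, had 423 counts in Hep3B and 438 in Hep3B-C and 0 counts in both Huh7 libraries. It was thus seen in the Hep3B lines alone, unlike the 3 miR-151 miRNAs.

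Of 14 miRNAs from other genes of the distal long arm of chromosome 8, between 3.08 and 12.9 Mb from MIR151A, 8 stayed under 10 counts in every library and 7 of these had none. In the Hep3B pair 6 of the 14 had at least 10 counts somewhere in the pair. Their median log2 fold change was 0.51 against 1.42 over all miRNAs. Past the 2-fold limit were 2 upward (hsa-miR-937, from 0 to 13 counts, and hsa-miR-939, from 2 to 11) and 0 downward. These 2 reached 10 counts in Hep3B-C alone, so the count minimum favoured an upward value, and they are not read as a rise. The median of 0.51 includes them. In the Huh7 pair 4 of the 14 had at least 10 counts somewhere in the pair, all of them arms of MIR30B and MIR30D. Their median was -0.83 against -0.66, and 0 passed upward and 1 downward (hsa-miR-30b, from 725 to 185 counts). Passing upward was seen for 66.5% and 7.42% of all miRNAs in these pairs, and passing downward for 5.05% and 37.4%. For Hep3B-C against Hep3B, values with DESeq2 size factors, total miRNA counts and TMM follow in that order. Upward, hsa-miR-937 stayed past the limit (3.70, 3.11 and 3.46), while hsa-miR-939 passed under the first of these only (1.14, 0.56 and 0.91). Passing upward was seen for 29.5%, 19.4% and 25.5% of all miRNAs. Downward, hsa-miR-30b (-1.19, -1.77 and -1.42), hsa-miR-30b* (-1.80, -2.38 and -2.03) and hsa-miR-30d* (-1.03, -1.61 and -1.26) passed, as did 14.5%, 25.1% and 17.7% of all miRNAs. Their genes, MIR30B and MIR30D, both lie 5.93 Mb from MIR151A. Counts were 17 in Hep3B and 10 in Hep3B-C for hsa-miR-30b*, and 44 and 45 for hsa-miR-30d*. With DESeq2 size factors their intervals (-3.11 to -0.62 and -1.66 to -0.39) lay on both sides of the limit. The abundant member, hsa-miR-30d, lies 5.93 Mb from MIR151A and stood at 2999 TPM (Hep3B), 5504 (Hep3B-C), 4905 (Huh7) and 5498 (Huh7-C). With total reads its log2 fold changes were 0.88 and 0.16, against 1.98 and 0.75 for hsa-miR-151-3p. Between Hep3B-C and Hep3B its sign turned with total miRNA counts (-0.89), TMM (-0.54) and DESeq2 size factors (-0.30), where that of hsa-miR-151-3p did not, and in the Huh7 pair it was positive under all 4.

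The profiles over the 4 libraries were compared with those of the 264 other miRNAs with at least 10 counts in each, as the root mean square distance of log2 TPM after centring. The 5 miRNAs nearest to hsa-miR-151-3p were hsa-miR-338-3p (distance 0.20), hsa-miR-25 (0.20), hsa-miR-183 (0.24), hsa-miR-324-3p (0.26) and hsa-miR-324-5p (0.28), against a median distance of 1.07. Of these, hsa-miR-25 had 216, 934, 289 and 512 TPM in Hep3B, Hep3B-C, Huh7 and Huh7-C. The 5 nearest to hsa-miR-151-5p were hsa-miR-92b (0.06), hsa-miR-106b* (0.11), hsa-miR-151b (0.13), hsa-miR-582-5p (0.19) and hsa-miR-125a-3p (0.21), against a median of 0.999. For hsa-miR-151b they were hsa-miR-92b (0.11), hsa-miR-151-5p (0.13), hsa-miR-125a-3p (0.16), hsa-miR-582-5p (0.22) and hsa-miR-106b* (0.23), against a median of 1.05. The arms of the miR-151 hairpin lay 1.002 apart, and the 3p arm was number 133 in distance from the 5p arm, close to the middle of all miRNAs. With 4 libraries, and low counts for several of these miRNAs, the distances are a description only.

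Between the lines, the parent cells had the same TPM of the 3p arm, and the HCSCs did not. The log2 difference of hsa-miR-151-3p was -0.00 for Huh7 against Hep3B (interval -0.03 to 0.02) and -1.23 for Huh7-C against Hep3B-C (-1.25 to -1.21). For hsa-miR-151-5p it was 0.62 (0.54 to 0.70) and -0.85 (-0.96 to -0.75), and for hsa-miR-151b 0.79 (0.35 to 1.25) and -0.85 (-1.53 to -0.23). The medians of all miRNAs in these comparisons were 1.59 and -0.82. The difference between the HCSCs in hsa-miR-151-3p was past the 2-fold limit with total reads, as were 46.8% of all 502 miRNAs in that direction. It also passed with total miRNA counts (-1.33), as did 49.0% of all miRNAs downward, but not with TMM (-0.96) or DESeq2 size factors (-0.92). All 3 miR-151 miRNAs lay below the median in Huh7 against Hep3B, by -1.60 for the 3p arm, -0.97 for the 5p arm and -0.80 for miR-151b. In Huh7-C against Hep3B-C they were -0.41, -0.03 and -0.03 from it. The near equality of the parent lines holds for total reads alone, since total miRNA counts, TMM and DESeq2 size factors gave log2 differences of -2.39, -1.47 and -1.45 for the 3p arm. Under these the 5p arm and miR-151b turned sign between the parent lines, to -1.77, -0.85 and -0.83 and to -1.59, -0.67 and -0.65. In share of miRNA counts, hsa-miR-151-3p reached 2.19% (Hep3B), 2.55% (Hep3B-C), 0.419% (Huh7) and 1.01% (Huh7-C).

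**Figure D5:**
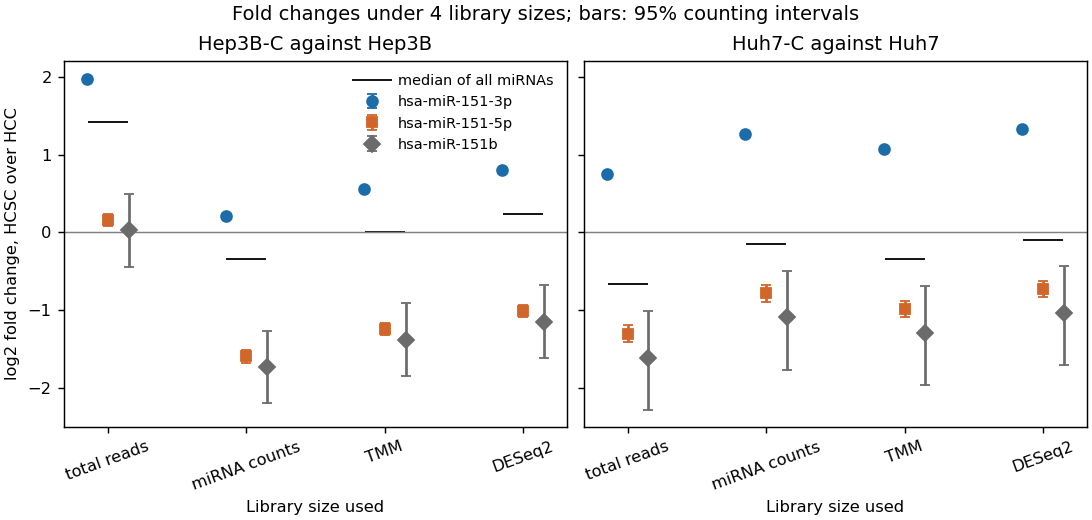
Log2 fold change, HCSCs over HCC cells, of the 3 miR-151 miRNAs under 4 library sizes in the Hep3B pair (left) and the Huh7 pair (right), with 95% counting intervals and, as a black dash, the median of all miRNAs. Hsa-miR-151-3p is above 0 and above the median under each library size, and the distance of 1.81 and 2.06 between the arms does not change.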

How the data were processed

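Small RNA of 4 cell populations was sequenced on an Illumina Genome Analyzer II, with 1 library each. According to the methods of the study, contaminant and redundant reads and reads under 18 nt were removed, the rest was mapped to an NCBI human genome build with SOAP, other classes of small RNA were set aside, and the remaining reads were assigned to miRBase release 17. The authors deposited the raw read count of each miRNA, without normalization. Positions come from GENCODE release 29 (GRCh38), since the deposited tables hold none, and no coordinates were converted.

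Counts were scaled to the total reads that the study lists for each library. Its TPM is not stated to rest on that total, so this is a choice made here. Fold changes were computed with 0.5 counts added, and the background is the miRNAs that reach 10 counts in 1 library of a pair or both. Intervals (95%) are exact Poisson, Clopper-Pearson or, for ratios of arms, Woolf intervals. They cover counting error only, and reads are not independent molecules. Arms were paired by name (5p with 3p, or a name with its star form). The named miRNAs were the members, the mir-28 family, listed miRNAs of chromosome 8 and of LINE-2 repeats, and the 5 nearest profiles of each member. Members and lists were chosen with earlier results of these data known. The RefSeq table matched 0 of the 3 members. Other library sizes were tried, namely total miRNA counts, TMM (edgeR 4.0.16) and DESeq2 1.42.0 size factors, as were other count minimums, no added counts, and another distance. The functions were tested on simulated data. Python 3.11.15, numpy 2.4.6, scipy 1.17.1, pandas 2.3.3 and R 4.3.3 were used.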

Additional observations from a re-analysis of the deposited data

Results flagged for a closer look

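Hsa-miR-151-5p had fold changes of opposite sign in the pairs, with a log2 fold change of 0.16 in Hep3B-C against Hep3B and -1.30 in Huh7-C against Huh7. Hsa-miR-151b did so as well, with 0.03 and -1.61, but its interval in the Hep3B pair (-0.44 to 0.50) included 0. This difference was not tested, since each condition had 1 library. With total miRNA counts as library size, both were lower in both HCSCs, with log2 fold changes of -1.60 and -0.79 for hsa-miR-151-5p and -1.73 and -1.10 for hsa-miR-151b. The miRNA share of total reads was 10.4% in Hep3B and 35.2% in Hep3B-C, against 54.1% in Huh7 and 37.8% in Huh7-C. Its part in the signs was not tested.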

How the results depend on the processing

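Differences were taken within each pair of HCSCs and parent line, but no paired test was run, since each condition had 1 library. The choice of library size moved the fold changes, and the arm shares did not depend on it. In the Hep3B pair, the log2 fold change of hsa-miR-151-3p was 0.22 with total miRNA counts, 0.57 with TMM and 0.80 with DESeq2 size factors, that of hsa-miR-151-5p was -1.60, -1.25 and -1.01, and that of hsa-miR-151b -1.73, -1.38 and -1.15, in the same order. The 3p arm was thus past the 2-fold limit with total reads alone, and the 5p arm and miR-151b changed sign against total reads. In the Huh7 pair the 3p arm was at 1.27, 1.07 and 1.33, past the limit under these but not with total reads, and the 5p arm at -0.79, -0.99 and -0.73, no longer past it. Huh7 against Hep3B gave -2.39, -1.47 and -1.45 for the 3p arm, -1.77, -0.85 and -0.83 for the 5p arm and -1.59, -0.67 and -0.65 for miR-151b, so the latter 2 changed sign. Huh7-C against Hep3B-C gave -1.33, -0.96 and -0.92 for the 3p arm, and -0.58 and -0.54 for the 5p arm with TMM and DESeq2. The 3p arm was thus no longer past the limit with TMM and DESeq2. The number of miRNAs at least 2-fold higher in Hep3B-C was 316 with total reads, 92 with total miRNA counts, 121 with TMM and 140 with DESeq2, and the number lower was 24, 119, 84 and 69. In Huh7-C the numbers were 32, 66, 50 and 69 higher, and 161, 105 and 99 lower with total reads, total miRNA counts and DESeq2. With a minimum of 1 count, Hep3B-C had 517 higher and 96 lower, and Huh7-C had 112 and 299. With a minimum of 100 counts the numbers were 161 and 10, and 12 and 68. For hairpins with an arm ratio shifted at least 2-fold, a minimum of 100 counts per arm, added after the data were seen, gave 7 instead of 16 in each pair. Fewer features enter at a higher minimum. Leaving out the 0.5 added counts moved no fold change of a member beyond its interval. Counting error was widest for hsa-miR-151b, with 29 to 89 counts a library.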
